A study of Mus musculus with 2 samples.

Results

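The guanylate-binding protein genes Gbp5, Gbp7, Gbp3, Gbp2b and Gbp2 lie side by side on mouse chromosome 3. They are 5 of the 21521 protein-coding genes placed on the 19 autosomes and X in the RefSeq table used here. They were chosen by the loops deposited for these samples: every loop with an anchor or span in an 800 kb window around the genes was taken, together with any domain there. Which genes are joined and which are enclosed is therefore given as a description, without a test. The data are Hi-C maps, which list pairs of DNA stretches (anchors) found together in the nucleus more often than their surroundings, from HPC5, a haematopoietic progenitor line derived from mouse bone marrow. The line carried wild-type Etv6 (Etv6+/+), there were 2 replicates of 1 group, and no mutant, treated or interferon-stimulated sample was analysed here. Nothing in the labels says that the replicates are separate cultures, and where they differ the reason may be technical. A Hi-C loop list holds no RNA level, so the cell label could not be checked against marker genes, and whether the GBP genes were expressed is unknown here.

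Guanylate-binding proteins are large GTPases of the dynamin superfamily. Interferons, above all interferon gamma, switch their genes on, and the proteins assemble on the membranes of vacuoles that hold bacteria or parasites and on bacteria in the cytosol, where they help to disrupt them and to start inflammasome signalling. Mice carry them in a group on chromosome 3 and a group on chromosome 5. Etv6 encodes an ETS-family transcriptional repressor, and the study, by its title, asks how ETV6 restrains inflammatory genes.

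The genes form a tandem row. From the left end of Gbp5 to the right end of Gbp2 they cover 141.1 kb, each is 13.2 to 25.4 kb long, and all 5 are read in the same direction, on the plus strand. Gbp5, whose protein promotes inflammasome assembly in mouse macrophages, comes first at chr3:142496934-142522344 (mm10). Gbp7, which acts in the oxidative defence of macrophages, follows at chr3:142530336-142550151. Gbp3 lies at chr3:142560016-142573213, and Gbp2b, formerly called Gbp1, at chr3:142594816-142619179. Gbp2, whose protein coats the vacuole of the parasite Toxoplasma, comes last at chr3:142620663-142638008. The gaps between neighbours run from 1483 bp (Gbp2b to Gbp2) to 21602 bp (Gbp3 to Gbp2b).

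The cluster was outlined by loops in both replicates. The authors deposited a medium and a high list of loops for each replicate, and the medium lists, which also hold the loops of the high lists, are used unless stated. The window was overlapped by 2 of 1276 loops in replicate 1 and by 6 of 5729 loops in replicate 2. As many were found in 11.2% of all 800 kb windows in replicate 1 and in 10.6% in replicate 2, where the median window had 2 loops. Both replicate 1 loops were on 25 kb anchors and all 6 replicate 2 loops on 10 kb anchors. The number of reads behind either list is unknown, so a loop that is missing from the shorter list was not detected there and cannot be called absent.

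In replicate 1, a loop joined the start of Gbp5 to the far end of Gbp2. Its anchors lay at chr3:142475001-142499999 and chr3:142625001-142649999, 150 kb apart from midpoint to midpoint. The left anchor held the left end of Gbp5 and the right anchor held the right end of Gbp2. All 5 GBP genes lay wholly between the outer edges of this loop, and Gbp7, Gbp3 and Gbp2b lay wholly between its inner edges. No other protein-coding gene lay inside it.

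In replicate 2, 3 nested loops covered the same row of genes. The smallest, of 70 kb, joined chr3:142490001-142499999, with the start of Gbp5, to chr3:142560001-142569999, with the start of Gbp3 and the whole of Gm40158, a long non-coding RNA gene. It enclosed Gbp5 and Gbp7 in full. The next, of 130 kb, ran from the same left anchor to chr3:142620001-142629999, which held the start of Gbp2 and the microRNA gene Mir6381 within it, and enclosed all members but Gbp2. The widest, of 160 kb, joined chr3:142480001-142489999 to chr3:142640001-142649999. It had no gene end in either anchor and enclosed all 5 genes, also when measured from its inner edges. Its left anchor stopped 6.93 kb before Gbp5 and its right anchor began 1.99 kb after Gbp2. The pseudogene Gbp2-ps, a sequence relic of the family, began 8.95 kb beyond its outer edge.

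**Figure D1:**
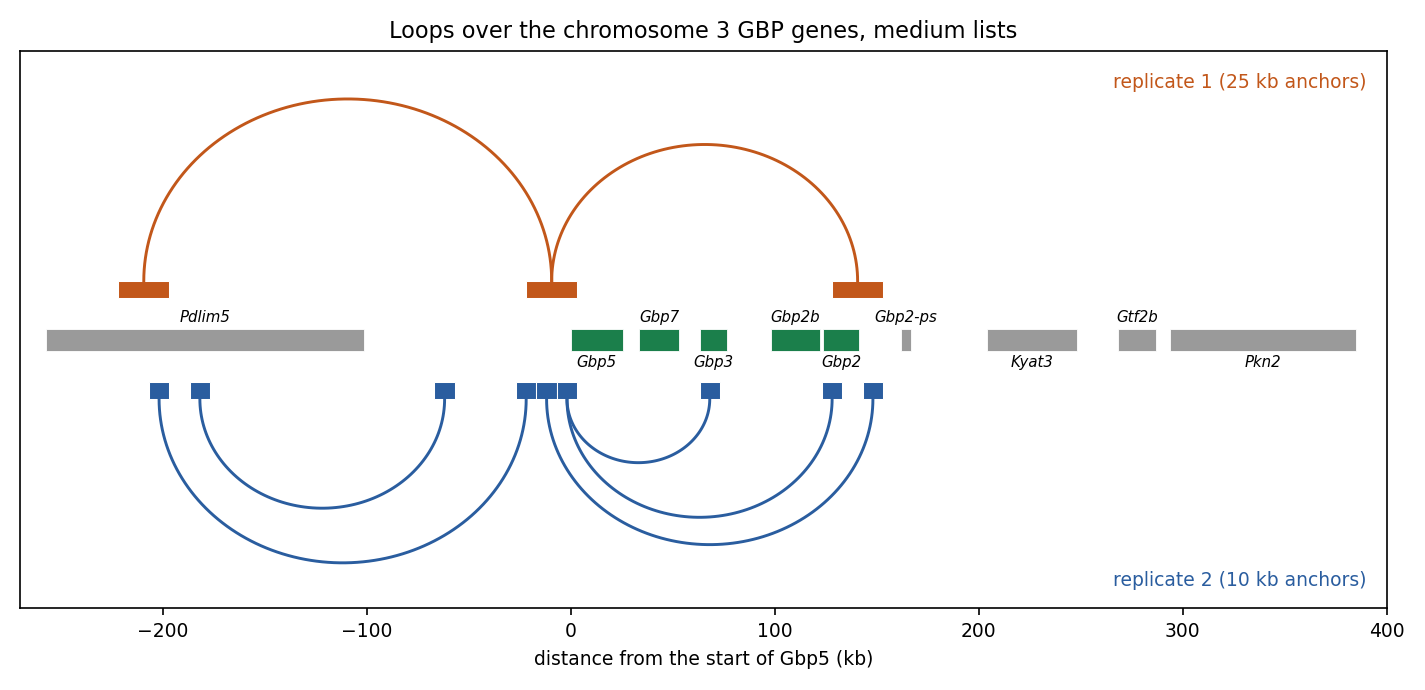
Loops over the chromosome 3 GBP genes in the medium lists, with distance from the start of Gbp5 in kb on the x axis. Green blocks are the 5 GBP genes, grey blocks the neighbouring protein-coding genes and the pseudogene Gbp2-ps; arcs join the midpoints of the anchors (small bars), replicate 1 above the genes and replicate 2 below. The replicate 2 loop of 410 kb that enters the window from the left is not drawn.

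By gene ends in anchors, 3 of the 5 genes were at an anchor in the lists together, against 22.5% of all protein-coding genes. Gbp5 and Gbp2 were at anchors in replicate 1 (2 of 5, against 6.67%), and Gbp5, Gbp3 and Gbp2 in replicate 2 (3 of 5, against 19.8%). Gbp5 was the partner in every joined pair: Gbp5 with Gbp2 in both replicates, and Gbp5 with Gbp3 in replicate 2. The anchor held the right end of Gbp2 in replicate 1 and its start in replicate 2. By midpoints, the replicate 2 loop closest to the replicate 1 loop was that of 160 kb, which had no gene end in either anchor. In replicate 2 it was the start of each of the 3 genes that lay in the anchor. A start lay in a replicate 2 anchor for 12.9% of the 17274 protein-coding genes with a start in the promoter table. Enclosure in a loop held for all 5 genes in replicate 1, against 9.28% of protein-coding genes, and for all 5 in replicate 2, against 34.0%. These shares come from the lists that chose the genes, and neighbouring genes share their loops, so nothing is read from them about the family.

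Gbp7 and Gbp2b were enclosed but not joined. Gbp7 lay inside 1 replicate 1 loop and 3 replicate 2 loops. Its left end was 30.3 kb from the nearest anchor in replicate 1 and 29.7 kb in replicate 2, and its right end 50.2 and 9.85 kb. Gbp2b lay inside 1 loop in replicate 1 and 2 in replicate 2, with its right end 5.82 kb from an anchor in replicate 1 and 0.822 kb from one in replicate 2. The division into joined and enclosed genes rests on bin edges in places. The left end of Gbp3 was only 15 bp inside its replicate 2 anchor, that of Gbp2 was 662 bp inside, and the right end of Gbp2b was 822 bp outside the anchor that held the start of Gbp2. With gene ends counted within 5 kb of an anchor, 4 genes were at anchors and Gbp2b also counted as joined to Gbp5. Within 10 kb all 5 were at anchors, and Gbp7 counted as joined to Gbp5 too.

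**Figure D2:**
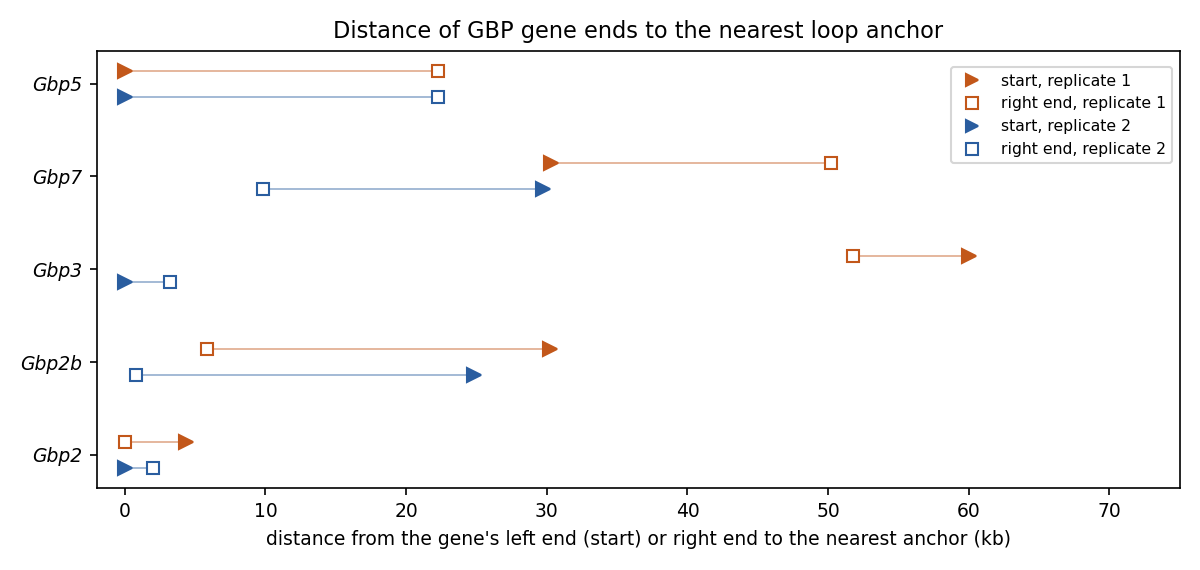
Distance in kb from each end of the 5 GBP genes to the nearest loop anchor of the medium lists, 0 meaning inside an anchor. Filled triangles are the left end (the start) and open squares the right end, with replicate 1 in orange and replicate 2 in blue. Gbp5 starts at an anchor in both replicates, Gbp3 in replicate 2 alone, and Gbp7 has no end within 9 kb of one.

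The replicates placed some of these loops, but not all, in nearly the same positions. Both replicate 1 loops and 3 of the 6 replicate 2 loops had a partner with both anchor midpoints within 20 kb. The replicate 1 loop from Gbp5 to Gbp2 had 2 partners. The midpoints of the 160 kb replicate 2 loop lay 2.5 and 7.5 kb from its own, and those of the 130 kb loop 7.5 and 12.5 kb. The left 25 kb anchor of replicate 1 covers the left anchors of both. Its right anchor covers that of the 160 kb loop in full and that of the 130 kb loop only in part, without the start of Gbp2, which lay 4.34 kb outside it. With midpoints required to lie within 10 kb, 1 loop of each replicate kept a partner, the 150 kb loop in replicate 1 and the 160 kb loop in replicate 2. The 70 kb loop from Gbp5 to Gbp3 had no partner in replicate 1, and its right midpoint lay 72.5 kb from that of the nearest replicate 1 loop.

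Loop ends gathered just upstream of Gbp5. In replicate 2 the anchors of 4 loops lay in 3 touching 10 kb bins, which together form the 30 kb stretch chr3:142470001-142499999. With touching anchors merged in the same way along all chromosomes, 1.45% of 8627 such stretches had 4 or more loops, and the median stretch had 1. The stretches were not matched for length, and one merged from several bins holds more anchors than a single bin. This stretch also lies in the window chosen by its loops, so nothing is read from the share. Of the 4 loops beside Gbp5, 3 reached to the right over the GBP genes. The fourth, of 180 kb, reached to the left, from chr3:142470001-142479999 to chr3:142290001-142299999 inside Pdlim5, which encodes a PDZ and LIM domain scaffold of the cytoskeleton. Replicate 1 had the same layout on its wider anchors, where one anchor, with the start of Gbp5, took part in both loops. Its second loop reached 200 kb to the left, to chr3:142275001-142299999 inside Pdlim5.

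Each deposited loop carries 2 values, named n (a whole number) and qBL, which the files do not define, and these served only to rank loops of one width in one list. Among the 2368 replicate 2 loops on 10 kb anchors, the loop from Gbp5 to Gbp3 had an n of 51 against a median of 29. It ranked 63 by n and 20 by lowest qBL (4.61e-16), and 3.08% of these loops had an n as high. Shorter loops had higher n. Among the 902 loops within 20 kb of its span, 7.10% had an n as high and the median was 36. The loop from Gbp5 to Gbp2 had an n of 43, a rank of 246 and a qBL of 3.69e-11, and 6.86% of 408 loops of like span reached that n. The 160 kb loop around the whole row had an n of 38, which 22.9% of the 10 kb loops and 15.5% of 303 loops of like span reached. Its qBL was 0.000229, which 67.2% of the 10 kb loops equalled or undercut, so the 2 values ranked this loop differently.

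In replicate 1 the order of the 2 loops was the same whichever value was used. The loop from Gbp5 to Gbp2 had an n of 45, against a median of 31 over 1074 loops on 25 kb anchors, and 11.0% had an n as high. The loop to Pdlim5 had an n of 28, and 66.4% had an n as high. Its qBL of 0.00981 was among the highest in the list, at or below which 95.7% of those loops fell.

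**Figure D3:**
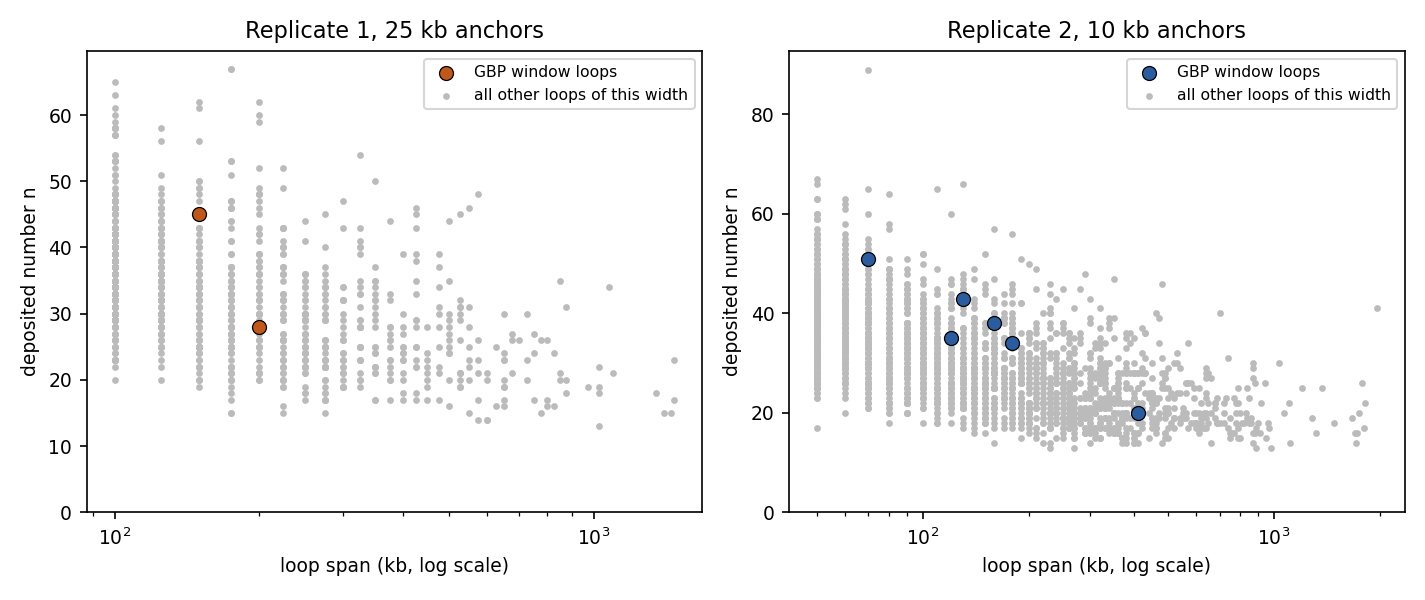
The deposited number n (y axis) against loop span in kb (x axis, log scale) for replicate 1 loops on 25 kb anchors and replicate 2 loops on 10 kb anchors. Large coloured points are the GBP window loops and small grey points all other loops of that width; the replicate 2 loops of 70 and 130 kb, with n of 51 and 43, sit in the upper part of the cloud at their spans, and the 410 kb loop, with n of 20, in the lower part.

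Of the protein-coding neighbours of the GBP genes in the window, only Pdlim5 was touched by loop anchors. Besides the 5 GBP genes the window held 4 protein-coding genes, and none had an end in an anchor in either replicate. Pdlim5 was touched in its body only, by anchors of both replicates, among them those of the loops from upstream of Gbp5 described above. One of its replicate 2 loops, of 120 kb, joined chr3:142310001-142319999 to chr3:142430001-142439999, which held the whole of Gm33189, a long non-coding RNA gene. Another, of 410 kb, ran from inside Pdlim5 to inside Bmpr1b, a bone morphogenetic protein receptor gene to the left of the window. It had no gene end in either anchor. To the right, Kyat3, a kynurenine aminotransferase gene, Gtf2b, the gene of the general transcription factor TFIIB, and Pkn2, a protein kinase gene, lay outside all loops. Their left ends were 51.0, 115 and 141 kb from the nearest anchor. After the right edge of the GBP loops, at position 142649999, the next loop began 1550 kb farther on in replicate 2 and 3400 kb farther on in replicate 1.

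No deposited domain held a GBP gene. Replicate 1 listed 3 domains in all and none on chromosome 3, and replicate 2 listed 339, of which 20 were on chromosome 3. None overlapped the window, and the nearest ended 6767 kb to the left of Gbp5, at position 135730000. Over both lists 3.98% of protein-coding genes lay wholly inside a domain. The row of GBP genes was thus outlined by loops without a listed domain around it.

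The promoters of the genes that start in loop anchors are shown for the interferon motif they share. Each run is the RefSeq window (GRCm38.p6, the assembly that mm10 names, plus strand) from 250 bases before to 50 bases after the start. Capitals mark matches to the interferon-stimulated response element (ISRE), a site bound by interferon regulatory factors. It was searched on both strands as GAAA, any 2 bases and GAAA again. All matches here read on the opposite strand. The first window is chr3:142496684-142496983, the second chr3:142559794-142560093 and the third chr3:142620413-142620712.
Gbp5: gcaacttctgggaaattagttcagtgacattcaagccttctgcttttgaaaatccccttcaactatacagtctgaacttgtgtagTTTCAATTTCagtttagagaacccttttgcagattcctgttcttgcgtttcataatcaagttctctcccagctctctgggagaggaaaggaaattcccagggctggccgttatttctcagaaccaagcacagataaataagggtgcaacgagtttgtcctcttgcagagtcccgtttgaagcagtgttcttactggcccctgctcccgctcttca
Gbp3: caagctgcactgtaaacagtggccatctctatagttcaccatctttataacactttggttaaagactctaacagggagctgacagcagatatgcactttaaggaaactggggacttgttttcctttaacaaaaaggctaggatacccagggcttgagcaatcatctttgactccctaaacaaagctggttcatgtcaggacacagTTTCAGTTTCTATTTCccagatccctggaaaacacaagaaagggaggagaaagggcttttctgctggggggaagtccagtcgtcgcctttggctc
Gbp2: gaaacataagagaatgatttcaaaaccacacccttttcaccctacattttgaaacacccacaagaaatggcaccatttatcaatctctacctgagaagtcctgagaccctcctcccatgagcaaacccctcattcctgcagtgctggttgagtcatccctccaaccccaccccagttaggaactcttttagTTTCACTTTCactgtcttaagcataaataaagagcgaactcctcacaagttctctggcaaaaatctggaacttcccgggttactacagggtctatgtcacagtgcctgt

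For the genes that were enclosed and not joined, the match is shown with 20 bases on each side, at chr3:142530263-142530312 for Gbp7 and chr3:142594690-142594739 for Gbp2b, plus strand.
Gbp7: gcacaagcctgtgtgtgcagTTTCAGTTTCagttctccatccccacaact
Gbp2b: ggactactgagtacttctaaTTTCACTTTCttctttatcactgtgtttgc

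An ISRE match was present in all 5 genes, against 3.44% of the 32851 promoter windows of the table (3.99% of 27025 genes). It lay at positions -59 to -50 from the start in Gbp2, -53 to -44 in Gbp7, -137 to -128 in Gbp2b and -165 to -156 in Gbp5. Gbp3 had 2 overlapping matches, from -45 to -30, and a second RefSeq start farther right without one. The match was thus common to the joined and the enclosed genes. The gamma-activated site, a motif of interferon gamma responses, was searched as TTCNNNGAA. It matched in 2 genes, Gbp5 and Gbp7, with 2 matches each, against 8.30% of windows (9.55% of genes). The core of the ETS site in the form CCGGAA, on either strand, matched in 0 of the 5 genes, against 14.9% of windows (16.7% of genes). A shorter or different ETS site was not searched, and a match or its lack says only which letters are in the window.

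**Figure D4:**
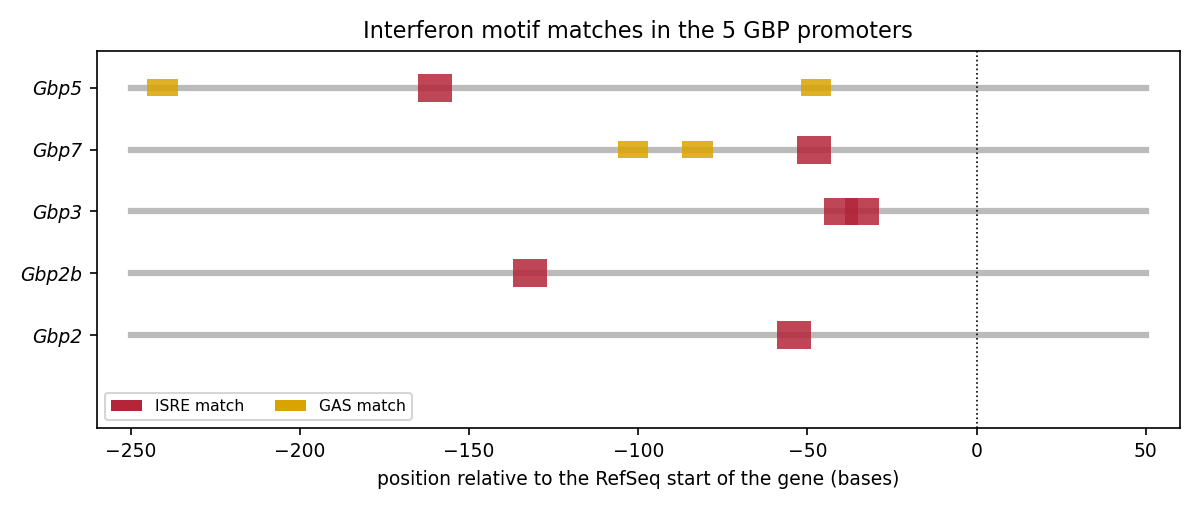
Positions of ISRE matches (red) and gamma-activated site (GAS) matches (yellow) in the RefSeq promoter windows of the 5 GBP genes, in bases relative to the start (dotted line), with grey lines for the windows searched. Every gene has an ISRE match upstream of its start, and Gbp5 and Gbp7 each have 2 GAS matches.

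Set against the replicate 2 anchors, the promoter windows of Gbp5 and Gbp2 lay wholly inside an anchor, each with its ISRE match. That of Gbp3 straddled the left edge of its anchor at position 142560001. One of its ISRE matches, at 142560005 to 142560014, was wholly inside, and the other, at 142559999 to 142560008, crossed the edge. In replicate 1 only the promoter window of Gbp5 lay in an anchor. The windows of Gbp7 and Gbp2b lay in no anchor of either replicate.

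As read from gene symbols, joining of members of one family was uncommon among loops that had gene ends at both anchors. Families were read from the letters before the number in the symbol. This lumps some unrelated genes and misses families with shorter or hyphenated symbols, so the shares are rough. The GBP genes gave 1 such loop in replicate 1 and 2 in replicate 2. Loops between genes of one family numbered 7 of 270 in replicate 1 (2.59%) and 39 of 853 in replicate 2 (4.57%).

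The GBP genes of chromosome 5 were enclosed as a row as well, in replicate 2 alone. They cover 334 kb and comprise Gbp8, Gbp9, Gbp4, Gbp10, Gbp6 and Gbp11, the last annotated as a transcribed pseudogene. A loop of 325 kb on 25 kb anchors joined chr5:104975001-104999999, with an end of the transporter gene Abcg3, to chr5:105300001-105324999, with the left end of Gbp11. It enclosed the other 5 genes, Gbp8, Gbp9, Gbp4, Gbp10 and Gbp6, and no loop joined any of these. Its n was 46, below the median of 60 for the 2375 replicate 2 loops of that width. The row on chromosome 3 was reached by 3 replicate 2 loops and both replicate 1 loops, and that on chromosome 5 by this loop alone. The difference was not tested.

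**Figure D5:**
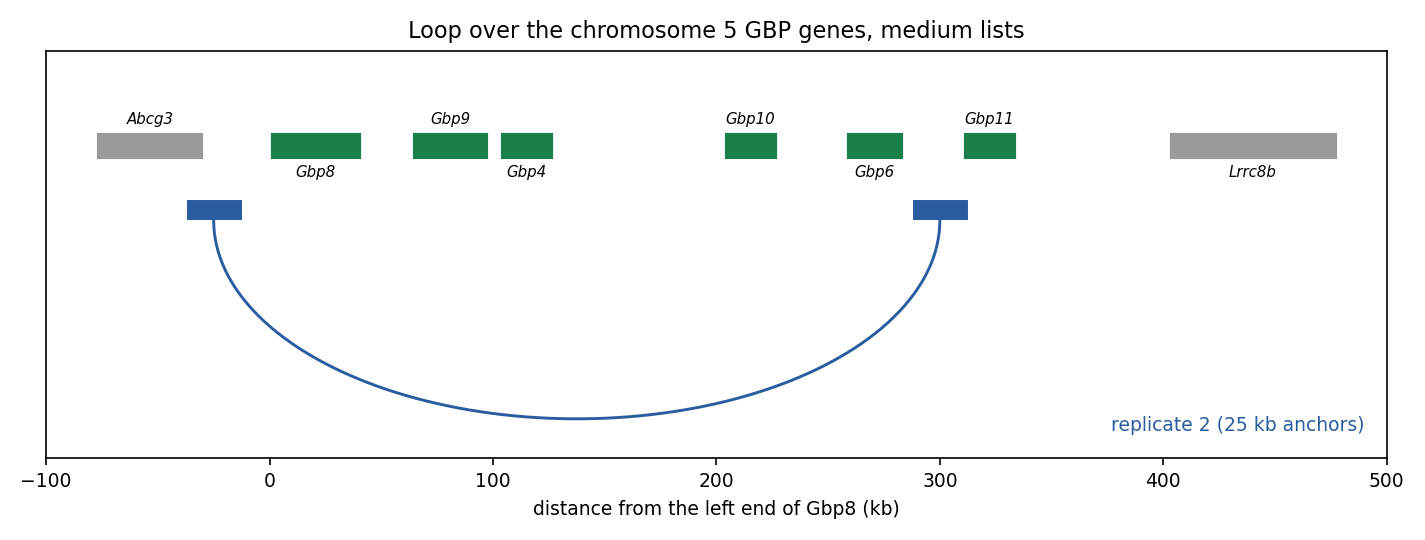
The replicate 2 loop over the GBP genes of chromosome 5 (green), with distance from the left end of Gbp8 in kb on the x axis and the neighbouring genes Abcg3 and Lrrc8b in grey. Bars are the 25 kb anchors and the arc joins their midpoints. Between the anchors lie 5 of the 6 genes, and the left end of Gbp11 lies in the right one. Replicate 1 had no loop over these GBP genes. Loops that do not overlap the GBP genes, such as replicate 1 loops with an anchor at Lrrc8b, are not drawn.

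Other interferon-inducible GTPases and the interferon gamma pathway were looked up in the same lists. Of 18 other GTPase genes (the chromosome 5 GBP genes, the immunity-related GTPases, the Mx genes and Gvin1), 2 were at an anchor in replicate 2, against 19.8% of all protein-coding genes, and 0 in replicate 1, against 6.67%. These were Gbp11 and Mx1, an antiviral GTPase annotated here as a transcribed pseudogene, which had a 150 kb loop on chromosome 16. Within loops lay 10 of the 18 in replicate 2, against 34.0% of protein-coding genes, and 0 in replicate 1, against 9.28%, and 5 of the 10 were in the chromosome 5 loop. The counts include 3 genes annotated as transcribed pseudogenes, while the background shares cover protein-coding genes only. Both genes at an anchor are such pseudogenes, so none of the 15 protein-coding genes of this list was at one. Mx1 and another of the pseudogenes are also among the 10 enclosed. Of 13 genes of the interferon gamma pathway, 4 were at an anchor in replicate 2 (against 19.8%) and 0 in replicate 1 (against 6.67%). Enclosed were 8 in replicate 2 (against 34.0%) and 5 in replicate 1 (against 9.28%). None of these differences from the background was tested. The 4 were the receptor chain gene Ifngr1 with a loop of 100 kb, the kinase genes Jak1 (200 kb) and Jak2 (190 kb), and Socs1, the gene of a feedback inhibitor of these kinases, with loops of 125 and 200 kb. None of the opposite anchors held a protein-coding gene end. These counts take gene ends only. In replicate 1, anchors lay inside Ifngr1 and Jak2, among other genes of the list, without holding either end.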

How the data were processed

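Hi-C was run on 2 replicates of HPC5 cells with the Arima kit, per the labels' protocols. HiC-Pro 2.11.1 and mm10 are named in the submitters' processing notes, and no name of a loop or domain caller is given in the sources used here. The deposited lists hold positions in bp and text, in no common unit: each loop has 2 anchors, n and qBL, and each domain a rank and a score, none defined in the files. Loops were called per replicate. Depth is unknown.

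Genes came from RefSeq GRCm38.p6, without 345 scaffold genes, and strand from the promoter table, where all 5 members matched. A gene was at an anchor when either end lay in it, joined when another gene lay in the opposite anchor, and enclosed when it lay wholly between the outer edges. Domain starts were moved by 1 base. Members, lists and motifs were chosen with earlier results of these data known. The genes named were the members, protein-coding neighbours in the window, genes at an anchor of a window loop, and listed genes at an anchor. Non-coding genes, Lrrc8b, Abcg3, Bmpr1b and the chromosome 5 genes that were only enclosed were named after their values were seen. A gene of the pathway list is not reported here. No test was run, since both samples form 1 group. Python 3.11.15 and pandas 2.3.3 were used, and the overlap code was tested on simulated data.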

Additional observations from a re-analysis of the deposited data

How the results depend on the processing

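The 8 loops of the window (6 in the high lists, 2 and 6 with either replicate left out) were 7 with both anchors required inside it, and 8 with 1 anchor required or with the window widened by 200 kb on each side. Genes at anchors numbered 3, with 2 to 3 when either replicate was left out, 3 in the high lists or by gene bodies, 4 within 5 kb and 5 within 10 kb. Pairs joined numbered 2, with 1 to 2 when a replicate was left out, 2 in the high lists or by gene bodies, 3 within 5 kb and 4 within 10 kb. All 5 genes were enclosed under each of the 5 alternatives tried, and 0 lay in a domain under each of the 3. The high lists held as many loops on 5 and 10 kb anchors as the medium lists, and 0 on 25 kb anchors. Both replicate 1 loops here are on 25 kb anchors and all 6 replicate 2 loops on 10 kb anchors. The high-list values are therefore those of replicate 2, were fixed by anchor width, and are no separate check. Loops with a partner, counted over both replicates, numbered 5, also within 50 kb or by overlap of anchors, and 2 within 10 kb. No paired analysis was possible because there is 1 group. Unknown depth limits any statement on loops seen in replicate 2 alone.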
